A study of Chionodraco hamatus and Gymnodraco acuticeps and Trematomus bernacchii with 9 samples.

Results

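The comparison set the head kidney of the dragonfish Gymnodraco acuticeps against that of Trematomus bernacchii, a nototheniid, both Antarctic notothenioid fish with red blood. Its members are the 6 libraries labelled as these 2 species, 3 of each, out of 9 libraries in the series. The remaining 3 libraries are of Chionodraco hamatus, an icefish without hemoglobin, and the series title names TGF-beta signalling and a block of erythropoiesis in an icefish. RNA was taken with Trizol from frozen head kidney, and Illumina TruSeq libraries were made from 6 ug of total RNA. The labels give no age, sex, season or treatment for either species, and whether each library is a different fish is not stated either. The p-values therefore measure no more than the spread between these samples, which may be technical.

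In bony fish most blood cells form in the head kidney, where lymphoid tissue lies beside interrenal cells, which make steroids, and chromaffin cells, which make catecholamines. Red cell precursors there make hemoglobin from alpha and beta globin chains and heme, which is built from glycine and succinyl-CoA in a chain of mitochondrial and cytosolic enzymes and needs iron brought in by transferrin and its receptor. Granulocytes, macrophages, lymphocytes and thrombocytes, the nucleated counterpart of platelets, form in the same tissue.

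Total counts were 3052436, 4310369 and 12055675 in G. acuticeps replicates 1, 2 and 3 and 3867403, 2600100 and 11861252 in T. bernacchii replicates 1, 2 and 3. Spearman correlations across rows ran from 0.944 to 0.963 within G. acuticeps and from 0.879 to 0.921 within T. bernacchii. T. bernacchii replicate 2 stood apart from the other T. bernacchii libraries in the summed level of the neutrophil list, which was 1542, 1689.9 and 1463 CPM in G. acuticeps against 3212, 14076 and 2896 in T. bernacchii. The red cell membrane list fell stepwise from replicate 1 to 3 in G. acuticeps, with 27019.5, 13242 and 6904 CPM against 3651, 5194 and 2384 in T. bernacchii. Here and below, values in a series of 3 are for replicates 1, 2 and 3, in CPM scaled by TMM, and an adjusted p comes from the quasi-likelihood test of edgeR, corrected over all features tested by the Benjamini-Hochberg method. Rows, mnemonics and families were scaled in separate fits, so a row's CPM can slightly exceed the sum it belongs to. A feature was called at an adjusted p under 0.05, and fold changes are G. acuticeps over T. bernacchii.

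The table has 12653 rows, each the name of a UniProt entry, made of a protein mnemonic and an organism code. Of 7470 rows tested, 2947 were called (39.5%), 1286 of them higher in G. acuticeps (17.2%) and 1661 lower (22.2%). After rows with the same mnemonic were summed, 2749 of 7124 mnemonics were called (38.6%), 1203 higher (16.9%) and 1546 lower (21.7%). The median log2 fold change over all tested mnemonics was -0.062. Of the called mnemonics, 326 (11.9%) had no count in any library of 1 species, 140 of them in T. bernacchii and 186 in G. acuticeps. A further 1963 had a count in each of the 6 libraries. Among these, 474 of 830 higher ones and 761 of 1133 lower ones differed at least 4-fold. Lower mnemonics numbered 1026 without G. acuticeps replicate 2. Leaving out 1 library changed the number of all called mnemonics from 2749 of 7124. It was 2112 of 7520, 1875 of 7454 and 2233 of 7477 without G. acuticeps replicates 1, 2 and 3. Without T. bernacchii replicates 1, 2 and 3 it was 2484 of 7461, 3380 of 7388 and 2896 of 7361. Counts of list members without 1 library, given below, are to be read beside these totals. Libraries of the 2 species did not overlap in 2741 of 2749 called mnemonics (99.7%) and in 3884 of 7124 tested (54.5%). An absence of overlap in a called gene therefore adds little to its call.

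**Figure D1:**
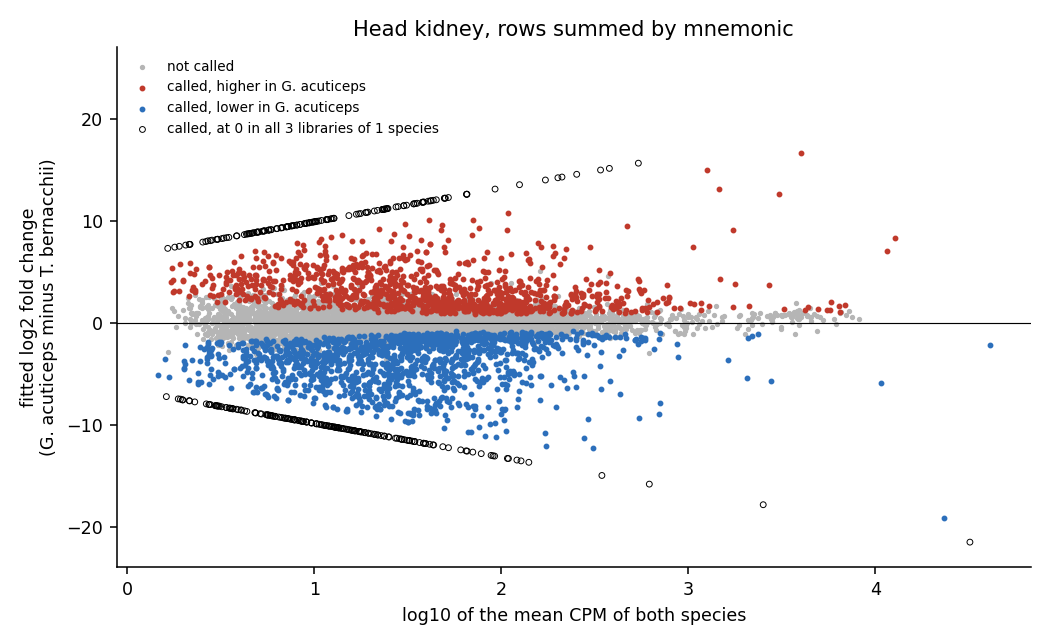
Each point is 1 tested mnemonic, with the log10 mean CPM of both species on the x axis and the fitted log2 fold change on the y axis. Open circles are the 326 called mnemonics without a count in any library of 1 species, whose fitted values trace the level in the other species and are no estimate of a fold.

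How reads were assigned to rows bears on each of these counts, since a protein can stand in the table under entries of several organisms. Of the mnemonics tested in 1 row or more, 355 had at least 2 tested rows, and 338 of those 720 rows were called (46.9%), against 2609 of 6750 other rows (38.7%). In 43 of the 355 mnemonics, 1 row was called higher and another lower. After summing, 21 of the 43 were not called, 15 were higher and 7 were lower. PTN2, a tyrosine phosphatase, is one of the 21. Its entry PTN2_HUMAN had 73.5, 63.2 and 64.1 CPM in G. acuticeps against 0.242, 4.08 and 0.0949 in T. bernacchii, while PTN2_MOUSE had 2.08, 2.87 and 4.58 CPM in G. acuticeps against 65.8, 74.5 and 55.03 in T. bernacchii. Summed, PTN2 had a log2 fold change of 0.067 (adjusted p = 0.877). TADBP, the RNA-binding protein TDP-43, was split in the same manner, with 560.4, 431 and 355 CPM in G. acuticeps against 7.99, 52.04 and 9.11 in T. bernacchii for TADBP_HUMAN and 1.79, 1.68 and 1.95 CPM in G. acuticeps against 275, 89.8 and 299 in T. bernacchii for TADBP_CHICK. Its sum gave 0.88 (adjusted p = 0.113). DPP3, a peptidase, had no T. bernacchii count in DPP3_HUMAN and at most 1.17 CPM in G. acuticeps in DPP3_MOUSE, and the sum gave 0.21 (adjusted p = 0.731). PTN2, TADBP and DPP3 were chosen as examples after their values were seen. A species difference in expression and reads of 1 gene going to different entries in the 2 species cannot be told apart in a single row. Summing by mnemonic can lessen this limit only where a mnemonic has several rows. It does not join entries with different mnemonics, such as the beta globin and actin entries below. Of 138 named genes, 116 stand in the table as 1 row, so the limit holds for most genes below.

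Summed hemoglobin transcripts were lower in G. acuticeps for both chains, although in bulk tissue fewer cells of a type and less RNA per cell cannot be told apart. A sum also leaves out reads that matched no entry, and whether such reads were more common in 1 species was not tested. Both family sums were called, in a family fit that called 2727 of 7075 features (38.5%). The summed alpha chains had 7247, 7942 and 9021 CPM in G. acuticeps against 71618, 36102 and 84219.8 in T. bernacchii, and every T. bernacchii library was above every G. acuticeps library. The fold change was -2.99 on the log2 scale (SE 0.44, adjusted p = 0.00134). The summed beta chains had 10759, 9701 and 11198 CPM in G. acuticeps against 32317, 32229.5 and 84456 in T. bernacchii, again with no overlap, and a log2 fold change of -2.23 (adjusted p = 0.00805, SE 0.48). The call for the hemoglobin beta chains was lost without G. acuticeps replicate 2 (adjusted p = 0.0571). Row by row, the species shared almost nothing. The T. bernacchii alpha counts fell mainly on HBA_TREBE, the entry of T. bernacchii itself, with 0, 0 and 0 CPM in G. acuticeps against 71507, 35646 and 84579 in T. bernacchii, at least 100763-fold lower in G. acuticeps against a floor of 3 counts per library. This floor and the intervals below cover counting error only. In G. acuticeps they fell on HBA2_GOBGI, of the nototheniid Gobionotothen gibberifrons, with 7148, 7884 and 8936 CPM in G. acuticeps against 0, 0 and 0.0949 in T. bernacchii. HBAD_APUAP, an alpha-D chain entry, was counted in every library at 134, 88.1 and 91.9 CPM in G. acuticeps against 58.3, 103 and 22.4 in T. bernacchii. Its groups overlapped and it was not called (adjusted p = 0.286). Without T. bernacchii replicate 2, the HBAD mnemonic was called higher in G. acuticeps, at 1.39 (adjusted p = 0.0457). Among beta rows, HBB_TREHA had 0, 0 and 0 CPM in G. acuticeps against 29267, 28458 and 81681 in T. bernacchii, and HBB2_GOBGI had 0, 0 and 0 CPM in G. acuticeps against 3025, 3455 and 3152 in T. bernacchii. HBB2_PSEUR, of Pseudaphritis urvillii, had 10812, 9738 and 11207 CPM in G. acuticeps against 0, 0 and 0 in T. bernacchii, the reverse pattern. Because HBB2_PSEUR and HBB2_GOBGI carry the same mnemonic, HBB2 was called higher in G. acuticeps at a log2 fold change of 1.71 (adjusted p = 0.00383, SE 0.32), whereas all beta chains together were lower. Summing by mnemonic thus gave HBB2 the opposite direction from summing by family. Of the other globins, 1 mnemonic was in the table and 0 were tested.

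**Figure D2:**
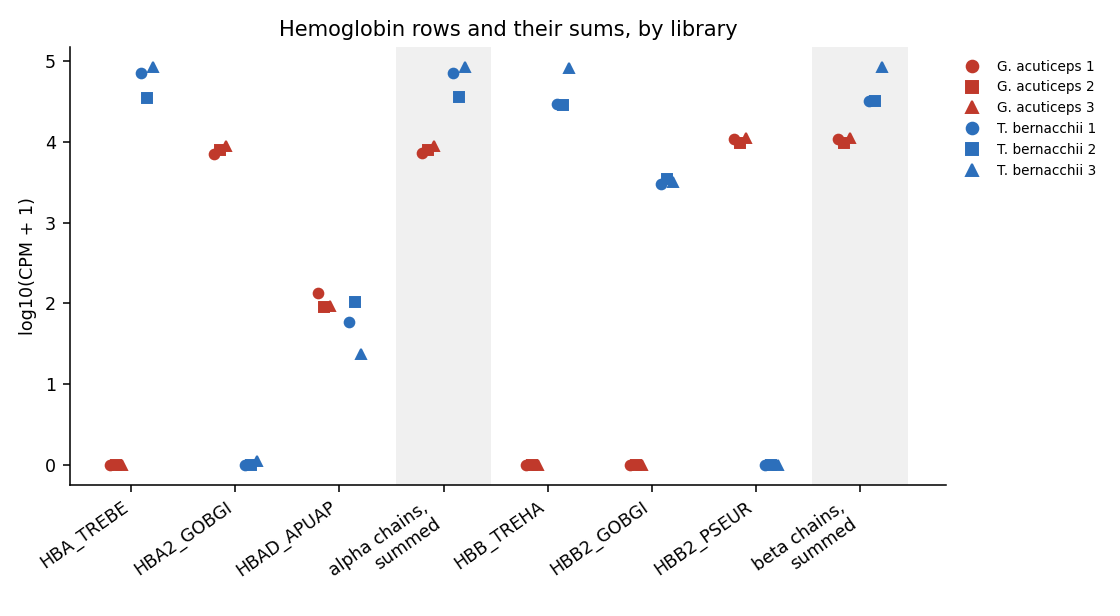
Log10(CPM + 1) of each tested hemoglobin row and of the summed alpha and beta chains (shaded) in the 6 libraries, with red for G. acuticeps, blue for T. bernacchii and marker shape for the replicate. Single rows are near 0 in 1 species or the other except HBAD_APUAP, while both sums are higher in all 3 T. bernacchii libraries.

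Heme synthesis went the other way. Of 13 tested members, 7 were higher in G. acuticeps and 1 lower, against 16.9% and 21.7% of all mnemonics, with a median log2 fold change of 1.53. The list summed to 8127, 6824 and 6825 CPM in G. acuticeps against 2559.9, 2301 and 2465 in T. bernacchii, without overlap. HEM3, the hydroxymethylbilane synthase that joins the pyrrole rings, had 1812, 954 and 316 CPM in G. acuticeps against 29.6, 121 and 26.8 in T. bernacchii (log2 fold change 4.13, SE 0.87, adjusted p = 0.00707). HEM6, the coproporphyrinogen oxidase, had 1055, 773 and 691 CPM in G. acuticeps against 102, 118 and 54.97 in T. bernacchii (log2 fold change 3.199, SE 0.42, adjusted p = 0.000779). PPOX, the protoporphyrinogen oxidase that acts next, had 288, 204 and 160.1 CPM in G. acuticeps against 52.6, 37.4 and 74.1 in T. bernacchii (log2 fold change 1.98, SE 0.39, adjusted p = 0.00539). The groups were apart in each of these enzymes, and HEM3 varied most among the G. acuticeps libraries, with replicate 1 highest. HEM0, the erythroid form of 5-aminolevulinate synthase, the first enzyme of the pathway, had 2776, 2330.4 and 2625 CPM in G. acuticeps against 721, 1259 and 624 in T. bernacchii (log2 fold change 1.57, SE 0.38, adjusted p = 0.0125). The HEM0 call was lost without T. bernacchii replicate 1 (adjusted p = 0.0509). HEM2, which forms porphobilinogen, had 208, 303 and 288 CPM in G. acuticeps against 55.99, 76.4 and 144 in T. bernacchii (log2 fold change 1.53, SE 0.42, adjusted p = 0.0230). The HEM2 call was lost without G. acuticeps replicates 2 or 3 or T. bernacchii replicate 1 (adjusted p 0.0502 to 0.0668). CLPX, a mitochondrial chaperone that activates aminolevulinate synthase, was at 153 ± 14.6 CPM (SD, n = 3) against 32.9 ± 24.95 (log2 fold change 2.22, SE 0.53, adjusted p = 0.0122). MFRN1, mitoferrin-1, the mitochondrial iron importer of red cell precursors, had 139, 149.7 and 217 CPM in G. acuticeps against 8.73, 63.4 and 5.49 in T. bernacchii (log2 fold change 2.73, SE 0.88, adjusted p = 0.0411). The MFRN1 call was lost without G. acuticeps replicates 1, 2 or 3 or T. bernacchii replicates 1 or 3 (adjusted p 0.0576 to 0.0848), and its value was 4.604 without T. bernacchii replicate 2. It was also lost under a stricter count filter, 50 counts or more in 3 libraries (adjusted p = 0.0522). HEM4, the uroporphyrinogen-III synthase, had no count in G. acuticeps and 193, 67.2 and 129 CPM in T. bernacchii, at least 205-fold lower. Members not called include HEM1, the housekeeping 5-aminolevulinate synthase (log2 fold change -0.28), TM14C (1.12) and the transporters ABCB6 (-0.49) and MFRN2 (0.13). Higher heme synthesis members numbered 4 when T. bernacchii replicate 1 was left out.

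Of 15 iron handling members, 6 were higher and 3 lower (40% and 20%, beside 16.9% and 21.7% of all mnemonics), with a median log2 fold change of 0.51. TFR1, the transferrin receptor, had 2437, 1607 and 995 CPM in G. acuticeps against 503, 393 and 504 in T. bernacchii (log2 fold change 1.85, SE 0.41, adjusted p = 0.00865). STEA3, the ferrireductase of the transferrin cycle, had 599.9, 338 and 179 CPM in G. acuticeps against 0.485, 11.3 and 1.32 in T. bernacchii (log2 fold change 6.54, SE 1.15, adjusted p = 0.00311). No G. acuticeps value of either reached down to the T. bernacchii range. The ferritin sum, almost all FRIM_TRENE, the middle-subunit iron store, was higher at 12004, 7704 and 8936 CPM in G. acuticeps against 1808, 4882 and 2813 in T. bernacchii (log2 fold change 1.59, SE 0.45, adjusted p = 0.0243). The call for the ferritins was lost without G. acuticeps replicate 1 or T. bernacchii replicates 1 or 3 (adjusted p 0.0582 to 0.0790). IREB2, an iron-sensing regulator of mRNA, had 233, 158 and 159 CPM in G. acuticeps against 68.8, 47.99 and 48.1 in T. bernacchii (log2 fold change 1.74, SE 0.34, adjusted p = 0.00478). TRFE, transferrin, the iron carrier of plasma, had 3.85, 2.86 and 1.94 CPM in G. acuticeps against 33.9, 76.8 and 18.5 in T. bernacchii (log2 fold change -3.92, SE 0.66, adjusted p = 0.00255). NRAM2, a metal ion transporter, had 0.593, 0 and 0.778 CPM in G. acuticeps against 42.2, 27.8 and 46.5 in T. bernacchii, and NFS1, the cysteine desulfurase of iron-sulfur cluster assembly, had 0, 0.477 and 0.194 CPM in G. acuticeps against 36.6, 49.4 and 24.1 in T. bernacchii (log2 fold changes -6.21 and -7.21). Hepcidin, HEPC, the peptide that blocks iron export, had 939, 2839.7 and 3805 CPM in G. acuticeps against 0, 0 and 0.0946 in T. bernacchii. Its single T. bernacchii count puts the ratio at 53479-fold by depth-scaled counts (95% counting interval 9598 to 2112347). PCBP2, an iron chaperone and RNA-binding protein, had no T. bernacchii count and 401 ± 89.8 CPM (SD, n = 3) in G. acuticeps, at least 590.1-fold higher. NRAM2, NFS1, HEPC and PCBP2 lie outside the rule for named genes and were chosen after their values were seen. Of 6 tested members of heme export and breakdown, 1 was higher and 1 lower (16.7% each, beside 16.9% and 21.7% of all mnemonics). HMOX, the inducible heme oxygenase, was not called (log2 fold change -0.36, adjusted p = 0.556). Higher heme export and breakdown members numbered 2 when T. bernacchii replicate 2 was left out.

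The regulators of red cell formation split by gene. Of 19 tested, 6 were higher in G. acuticeps and 5 lower (31.6% and 26.3%, beside 16.9% and 21.7% of all mnemonics), with a median log2 fold change of 0.94. TAL1, a basic helix-loop-helix factor of blood stem cells and the erythroid line, had 711, 344 and 177 CPM in G. acuticeps against 81.2, 41.5 and 65.95 in T. bernacchii (log2 fold change 2.71, SE 0.56, adjusted p = 0.00671). GATA2, the GATA factor of stem and progenitor cells, had 896, 629 and 599 CPM in G. acuticeps against 184, 209 and 158 in T. bernacchii (log2 fold change 1.95, SE 0.33, adjusted p = 0.00255). E2AK1, the heme-regulated kinase that holds back globin translation when heme is short, had 445, 399 and 250.5 CPM in G. acuticeps against 7.76, 23.7 and 11.7 in T. bernacchii (log2 fold change 4.68, SE 0.54, adjusted p = 0.000446). These factors were higher in each G. acuticeps library than in any T. bernacchii library. RUNX1, RBTN2 (LMO2) and GFI1B, further factors of early blood cells, were higher by 1.16, 1.12 and 1.24 on the log2 scale. The RUNX1 call was lost without G. acuticeps replicates 1 or 2 or T. bernacchii replicates 1 or 3 (adjusted p 0.0777 to 0.116). The RBTN2 call was lost without G. acuticeps replicates 2 or 3 or T. bernacchii replicates 1 or 3 (adjusted p 0.0568 to 0.0704). The GFI1B call was lost without G. acuticeps replicates 1 or 2 or T. bernacchii replicate 3 (adjusted p 0.0667 to 0.0787). KLF1, the Kruppel-like factor that drives adult globin genes, had 13.04, 7.63 and 9.82 CPM in G. acuticeps against 164, 154 and 40.6 in T. bernacchii (log2 fold change -3.55, SE 0.59, adjusted p = 0.00228). NFE2, the p45 partner of small MAF proteins at the globin genes, had 5.04, 7.87 and 12.1 CPM in G. acuticeps against 265, 210.1 and 468 in T. bernacchii (log2 fold change -5.21, SE 0.53, adjusted p = 0.000286). BACH1, a heme-binding repressor, was at most 0.486 CPM in G. acuticeps and at least 40.8 in T. bernacchii (log2 fold change -7.23, SE 0.72, adjusted p = 0.000274). KLF1, NFE2 and BACH1 were thus lower without overlap, and 99.7% of all called mnemonics likewise had none. EPOR, the erythropoietin receptor, had 2.37, 2.38 and 4.96 CPM in G. acuticeps against 8.97, 33.6 and 9.65 in T. bernacchii (log2 fold change -2.38, SE 0.72, adjusted p = 0.0320). The EPOR call was lost without G. acuticeps replicates 1, 2 or 3 or T. bernacchii replicate 2 (adjusted p 0.0560 to 0.141), and its value was -1.47 without T. bernacchii replicate 2. MAFK, a small MAF protein, had 1.19, 0.953 and 1.94 CPM in G. acuticeps against 2.42, 39.8 and 7.38 in T. bernacchii (log2 fold change -3.53, SE 1.06, adjusted p = 0.0312). The MAFK call was lost without G. acuticeps replicates 1, 2 or 3 or T. bernacchii replicate 2 (adjusted p 0.0667 to 0.114), and its value was -1.802 without T. bernacchii replicate 2. MYB, a progenitor factor, was not called, with 544, 368 and 134 CPM in G. acuticeps against 0.727, 11.7 and 153 in T. bernacchii. Without T. bernacchii replicate 3, its highest library of that species, MYB was called higher at 5.88 (adjusted p = 0.00814). JAK2, STA5B, LYN, KLF3, LDB1, NF2L1 and SOX6 were not called either. Of these, LDB1 was called higher (1.66, adjusted p = 0.00515) and SOX6 higher (1.94, adjusted p = 0.0486) without T. bernacchii replicate 2. RUNX1, RBTN2, GFI1B and EPOR lost the call with all 9 libraries in the fit (adjusted p 0.0525 to 0.280). Higher erythroid members numbered 3 when G. acuticeps replicate 2 was left out, while lower members numbered 3 when G. acuticeps replicates 1, 2 or 3 or T. bernacchii replicate 2 was left out.

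Red cell membrane and enzyme transcripts had 8 of 19 tested members higher and 3 lower (42.1% and 15.8%, beside 16.9% and 21.7% of all mnemonics). The median was 1.5001. B3AT, band 3, the anion exchanger of the red cell membrane, had 9052, 4413 and 1472 CPM in G. acuticeps against 549.7, 399 and 205 in T. bernacchii (log2 fold change 3.695, SE 0.73, adjusted p = 0.00519). ANK1, the ankyrin that ties band 3 to spectrin, had 1233, 549 and 242 CPM in G. acuticeps against 31.99, 89.1 and 20.2 in T. bernacchii (log2 fold change 3.85, SE 0.79, adjusted p = 0.00652). In both, G. acuticeps replicate 1 was highest and replicate 3 lowest, yet the lowest G. acuticeps library was above the highest of T. bernacchii. RHAG, the Rh-associated glycoprotein, had 1798, 1099 and 375 CPM in G. acuticeps against 408, 192 and 195 in T. bernacchii (log2 fold change 2.04, SE 0.61, adjusted p = 0.0306). CAHZ, the carbonic anhydrase of fish red cells, had 801, 905 and 1014 CPM in G. acuticeps against 356, 266 and 340.0 in T. bernacchii (log2 fold change 1.5001, SE 0.31, adjusted p = 0.00625). GTR1, the glucose transporter, had 90.7, 46.2 and 21.2 CPM in G. acuticeps against 1.94, 12.7 and 2.46 in T. bernacchii (log2 fold change 3.26, SE 0.87, adjusted p = 0.0203). The GTR1 call was lost without G. acuticeps replicate 1 (adjusted p = 0.0772). ADDB, beta-adducin of the membrane skeleton, had 0.296, 0.238 and 0.680 CPM in G. acuticeps against 43.6, 26.1 and 12.9 in T. bernacchii (log2 fold change -5.86, SE 0.76, adjusted p = 0.000770). BCAM and CD44, adhesion proteins, were the other lower members. CD44 had no G. acuticeps count and 8.48, 148 and 8.99 CPM in T. bernacchii, highest in replicate 2. RHAG, CAHZ, BCAM and CD44 lie outside the rule for named genes and were chosen after their values were seen. Higher red cell membrane members numbered 4 when G. acuticeps replicate 1 was left out and 5 when G. acuticeps replicate 2 or T. bernacchii replicate 3 was left out. The part of red cell number in these differences was not tested.

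**Figure D3:**
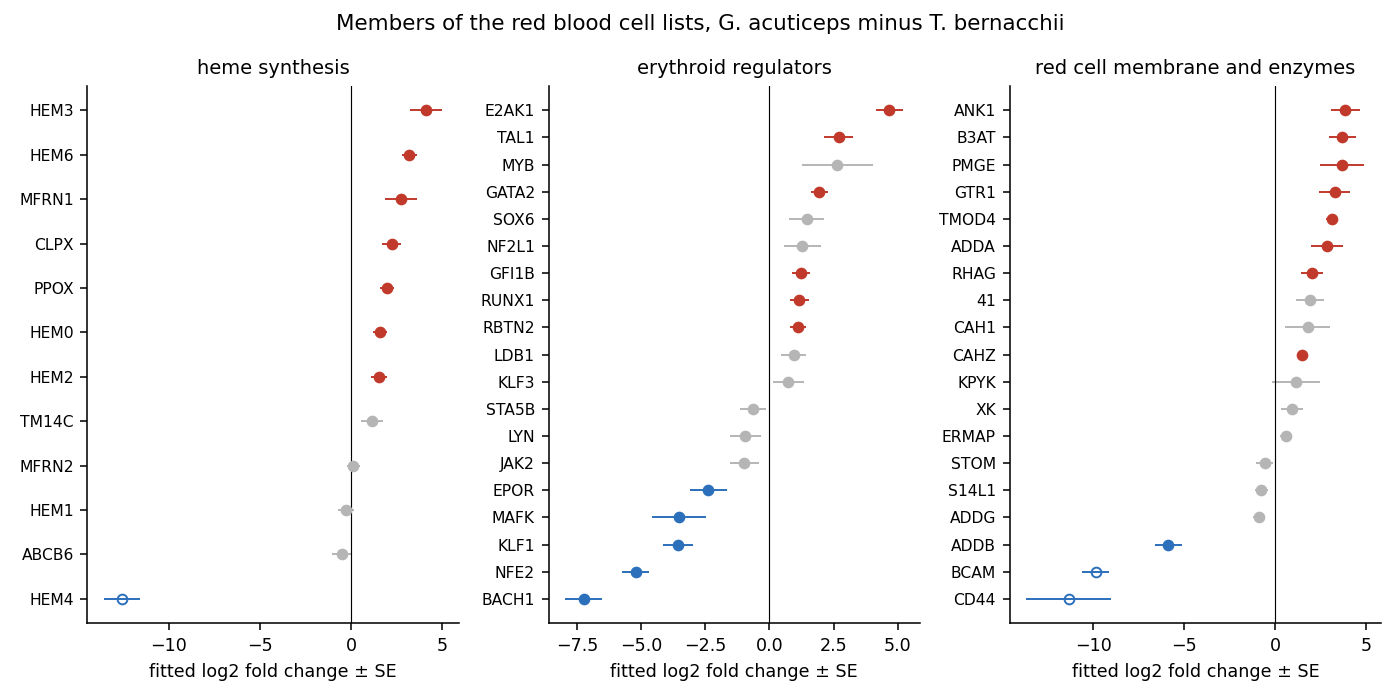
Fitted log2 fold change ± SE of tested members of 3 lists, red where called higher in G. acuticeps, blue where called lower and grey where not called. Open circles mark members with at most 3 counts in all in 1 species, such as HEM4, for which the fitted value is no estimate of a fold. Heme synthesis and red cell membrane lie mostly to the right, while the erythroid regulators lie on both sides.

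Called markers of neutrophils, macrophages, thrombocytes and T and NK cells were mostly lower in G. acuticeps, while those of B cells went both ways. Of 17 tested neutrophil and granulocyte members, 11 were lower and 3 higher (64.7% and 17.6%, beside 21.7% and 16.9% of all mnemonics). Their median log2 fold change was -2.74. LBP, the lipopolysaccharide-binding protein, had 6.22, 10.5 and 12.6 CPM in G. acuticeps against 357, 518 and 324 in T. bernacchii (log2 fold change -5.33, SE 0.45, adjusted p = 0.000177). NAMPT, an enzyme of NAD synthesis that also acts as a cytokine, had 0.889, 0.953 and 0.0972 CPM in G. acuticeps against 230.5, 142 and 247 in T. bernacchii (log2 fold change -8.56, SE 0.75, adjusted p = 0.000189). Both differed without overlap, and no T. bernacchii library stood apart. MMP9, a gelatinase stored in neutrophil granules, had 9.78, 16.7 and 15.3 CPM in G. acuticeps against 81.2, 2103 and 56.1 in T. bernacchii (log2 fold change -5.74, SE 1.47, adjusted p = 0.0168). The MMP9 call was lost without G. acuticeps replicates 1, 2 or 3 (adjusted p 0.0537 to 0.0734), and its value was -2.28 without T. bernacchii replicate 2. CEBPB, a factor of granulocyte and macrophage genes, had 1.48, 3.34 and 4.57 CPM in G. acuticeps against 10.7, 586 and 21.7 in T. bernacchii (log2 fold change -5.97, SE 1.595, adjusted p = 0.0200). The CEBPB call was lost without G. acuticeps replicates 1, 2 or 3 (adjusted p 0.0623 to 0.0818), and its value was -2.32 without T. bernacchii replicate 2. For MMP9 and CEBPB the T. bernacchii level was set mainly by replicate 2, the library in which the list's sum stood apart, and the direction was the same without it. NCF4, LYSC and GRN, which make an oxidase subunit, lysozyme and progranulin, were higher by 1.295, 1.96 and 2.21 on the log2 scale (adjusted p = 0.0283, 0.0284 and 0.0114). NCF4 and LYSC were named after their values were seen. Higher neutrophil members numbered 1 when G. acuticeps replicate 1 or T. bernacchii replicate 1 was left out, while lower members numbered 6 when G. acuticeps replicate 2 was left out and 7 when G. acuticeps replicates 1 or 3 was left out.

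The macrophage list had 8 of 19 members lower and 1 higher (42.1% and 5.26%, beside 21.7% and 16.9% of all mnemonics). Its median was -0.70, and its sums were 4522, 5722 and 6597 CPM in G. acuticeps against 6618, 11362 and 7294 in T. bernacchii. MRC1, the mannose receptor, had 2.96, 6.67 and 15.6 CPM in G. acuticeps against 444, 343 and 478 in T. bernacchii (log2 fold change -5.605, SE 0.65, adjusted p = 0.000463). CATK, cathepsin K, had 17.2, 18.6 and 20.9 CPM in G. acuticeps against 147, 417 and 177 in T. bernacchii (log2 fold change -3.702, SE 0.49, adjusted p = 0.000843). Neither overlapped between the species. MPEG1, perforin-2 of phagocytes, had 10.4, 10.5 and 14.9 CPM in G. acuticeps against 25.4, 214 and 17.2 in T. bernacchii (log2 fold change -2.83, SE 0.94, adjusted p = 0.0454). The MPEG1 call was lost without G. acuticeps replicates 1, 2 or 3 or T. bernacchii replicate 2 (adjusted p 0.106 to 0.136), and its value was -0.82 without T. bernacchii replicate 2. MPEG1 lost the call with all 9 libraries in the fit (adjusted p = 0.101). Higher macrophage members numbered 3 when T. bernacchii replicate 2 was left out, while lower members numbered 3 when G. acuticeps replicate 2 was left out and 4 when G. acuticeps replicates 1 or 3 was left out. Of 16 thrombocyte members, 9 were lower and 1 higher (56.25% and 6.25%, beside 21.7% and 16.9% of all mnemonics). Their median was -1.61, with sums of 1041, 1196 and 1080.0 CPM in G. acuticeps against 1931, 2582 and 1613 in T. bernacchii. P2Y12, the ADP receptor of platelets, had 2.07, 3.34 and 1.17 CPM in G. acuticeps against 98.2, 202 and 29.9 in T. bernacchii (log2 fold change -5.69, SE 0.83, adjusted p = 0.00130). GP1BA, a chain of the von Willebrand factor receptor, had 0.889, 3.34 and 2.04 CPM in G. acuticeps against 22.5, 45.6 and 31.98 in T. bernacchii (log2 fold change -3.97, SE 0.61, adjusted p = 0.00165). VWF, von Willebrand factor, made by endothelium and megakaryocytes in mammals, had 82.1, 45.5 and 64.7 CPM in G. acuticeps against 0.242, 1.37 and 0.473 in T. bernacchii (log2 fold change 6.65, SE 0.65, adjusted p = 0.000261). Receptor and ligand thus stood on opposite sides, each without overlap.

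T and NK cell markers were lower in 7 of 15 tested members and higher in 1 (46.7% and 6.67%, beside 21.7% and 16.9% of all mnemonics). Their median was -1.16, with list sums of 515, 974 and 1209.7 CPM in G. acuticeps against 1935, 2331 and 1855 in T. bernacchii. SH21A, the adaptor SAP of lymphocytes, had 19.3, 41.2 and 38.98 CPM in G. acuticeps against 128, 70.6 and 128 in T. bernacchii (log2 fold change -1.71, SE 0.42, adjusted p = 0.0138). The SH21A call was lost without G. acuticeps replicate 2 (adjusted p = 0.0553). PERF, perforin, had 3.85, 5.72 and 6.22 CPM in G. acuticeps against 34.4, 9.26 and 47.97 in T. bernacchii (log2 fold change -2.53, SE 0.65, adjusted p = 0.0169). The PERF call was lost without G. acuticeps replicates 1, 2 or 3 (adjusted p 0.0551 to 0.0722). LCK, the kinase of the T cell receptor, was at 0.383 ± 0.504 CPM in G. acuticeps and 71.01 ± 12.1 in T. bernacchii (SD, n = 3, adjusted p = 0.000308), and was named after its values were seen. SH21A and PERF lost the call with all 9 libraries in the fit (adjusted p 0.0574 to 0.0775). Higher T and NK cell members numbered 0 when G. acuticeps replicates 2 or 3 was left out, 2 when T. bernacchii replicate 1 was left out and 4 when T. bernacchii replicate 2 was left out, while lower members numbered 4 when G. acuticeps replicate 2 was left out.

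B cell members went both ways, with 5 higher and 7 lower of 18 (27.8% and 38.9%, beside 16.9% and 21.7% of all mnemonics). Their median was -0.82, with overlapping sums of 2267, 2361 and 2739 CPM in G. acuticeps against 1850.0, 3166 and 1785 in T. bernacchii. PAX5, the factor that fixes B cell identity, had 0.296, 0.238 and 0.0972 CPM in G. acuticeps against 52.8, 33.6 and 59.5 in T. bernacchii, 319-fold lower by depth-scaled counts (95% counting interval 109 to 1552). SYK, a kinase of the B cell receptor, had 1332, 1203 and 1435 CPM in G. acuticeps against 221, 274 and 238 in T. bernacchii (log2 fold change 2.44, SE 0.31, adjusted p = 0.000677). The B cell coactivator OBF1 was higher at a log2 fold change of 2.56 (adjusted p = 0.0284, SE 0.75). The OBF1 call was lost without G. acuticeps replicates 1 or 2 or T. bernacchii replicate 1 (adjusted p 0.0661 to 0.0730). HV05, an immunoglobulin heavy chain variable region, had 13.04, 14.3 and 16.5 CPM in G. acuticeps against 157, 1408 and 52.4 in T. bernacchii (log2 fold change -5.197, SE 1.197, adjusted p = 0.0106). The HV05 call was lost without G. acuticeps replicate 1 (adjusted p = 0.0526), and its value was -2.82 without T. bernacchii replicate 2. All immunoglobulin chains together were lower, with 12392, 19318 and 26085 CPM in G. acuticeps against 85035, 37537 and 89103 in T. bernacchii (log2 fold change -1.87, SE 0.48, adjusted p = 0.0174). The call for the immunoglobulin chains was lost without G. acuticeps replicates 1 or 2 or T. bernacchii replicate 1 (adjusted p 0.0538 to 0.0968). The immunoglobulin sum lost the call with all 9 libraries in the fit (adjusted p = 0.0797). Most of that sum came from KV401_HUMAN, a kappa variable region, with 9519.8, 15114 and 19001 CPM in G. acuticeps against 81104, 34007 and 85528 in T. bernacchii. The lower sum therefore rests mainly on KV401, and a sum without it was not tested. The family as matched by name had 11 tested mnemonics, 2 of them higher and 3 lower, beside 16.9% and 21.7% of all mnemonics. The lower ones were HV05, KV401 and HVCN1, and HVCN1 is no immunoglobulin chain. The higher ones, LAC6 and IGKC, had no T. bernacchii count. LAC6 had 277, 456 and 533 CPM in G. acuticeps, and IGKC had 4.15, 15.97 and 144. KACB, IGHM and LV302 were not called, at log2 fold changes of 0.51, -0.69 and -0.0065 (adjusted p = 0.429, 0.476 and 0.995). LAC6, IGKC, KACB, IGHM and LV302 were named after their values were seen. The family as matched by name took in HVCN1, LACTB, LACB2 and LACC1, which are no immunoglobulin chains. Without those 4 mnemonics, left out after their names were seen, its value was -1.87 (adjusted p = 0.0176). Higher B cell members numbered 3 when G. acuticeps replicates 1 or 2 or T. bernacchii replicate 1 was left out, while lower members numbered 2 when G. acuticeps replicate 1 was left out and 3 when G. acuticeps replicates 2 or 3 was left out.

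Stem and progenitor factors had the sums 3208, 2452 and 2141 CPM in G. acuticeps against 1415, 1246 and 1478 in T. bernacchii, which did not overlap. Of 14 tested members, 5 were higher (35.7%, beside 16.9% of all mnemonics). These members include TAL1, GATA2, RUNX1 and RBTN2, given above, and MEIS1, which had no count in T. bernacchii replicate 1 and was named after its values were seen. In edgeR's test 0 members were lower, beside 21.7% of all mnemonics (3 at an unadjusted p under 0.05, and 1 in DESeq2). Higher stem and progenitor members numbered 3 when G. acuticeps replicate 2 or T. bernacchii replicate 1 was left out, while lower members numbered 2 when T. bernacchii replicate 2 was left out.

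**Figure D4:**
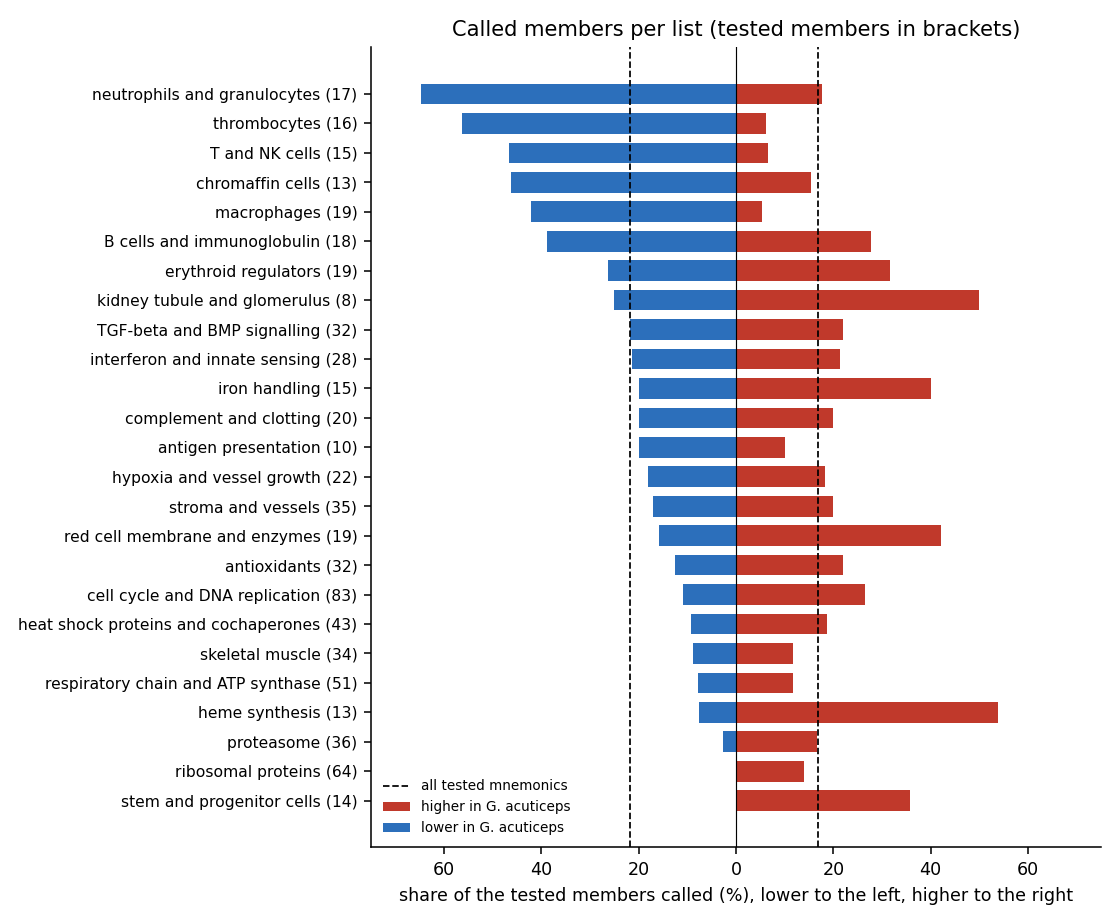
Share of the tested members of each list with at least 8 tested members that was called higher (red, right) or lower (blue, left) in G. acuticeps, in percent, with the shares over all tested mnemonics as dashed lines (16.9% higher and 21.7% lower). Neutrophil and thrombocyte lists extend furthest left, and heme synthesis extends furthest right.

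Kidney tubule and glomerulus members summed to 97.2, 86.3 and 73.00 CPM in G. acuticeps against 121, 95.98 and 119 in T. bernacchii, low in all libraries and overlapping. Of 8 tested, 4 were higher and 2 lower (50% and 25%, beside 16.9% and 21.7% of all mnemonics). Their median log2 fold change was 2.88 (1.77 with members at 0 taken at their bound). S4A4, a sodium bicarbonate cotransporter, had 16.6, 15.97 and 15.5 CPM in G. acuticeps against 67.1, 38.1 and 54.8 in T. bernacchii (log2 fold change -1.74, SE 0.36, adjusted p = 0.00689). The S4A4 call was lost without G. acuticeps replicate 2 (adjusted p = 0.0580). Lower kidney members numbered 1 when G. acuticeps replicate 2 was left out. Higher ones numbered 1 under the stricter count filter and 0 with features counted in all 6 libraries. The latter setting leaves out members without a count in any 1 library, so the share of 50% rests on such members. KLOT (klotho) was at 0 in G. acuticeps, while CADH1 (E-cadherin) and MEP1B (a meprin) were at 0 in T. bernacchii. Of 3 interrenal members, 2 were higher and 0 lower (66.7% and 0%, beside 16.9% and 21.7% of all mnemonics). At an unadjusted p under 0.05 in edgeR 0 were lower, and 0 in DESeq2. With 3 members tested, these shares say little. CP11A, the side-chain cleavage enzyme that begins steroid synthesis, had 57.5, 48.9 and 65.8 CPM in G. acuticeps against 30.5, 22.3 and 24.7 in T. bernacchii (log2 fold change 1.15, SE 0.33, adjusted p = 0.0253). The CP11A call was lost without G. acuticeps replicates 1, 2 or 3 or T. bernacchii replicate 3 (adjusted p 0.0558 to 0.0707). NCPR, the reductase that feeds electrons to cytochromes P450, had 113, 56.3 and 42.6 CPM in G. acuticeps against 3.64, 27.8 and 3.97 in T. bernacchii (log2 fold change 2.62, SE 0.86, adjusted p = 0.0426). The NCPR call was lost without G. acuticeps replicates 1, 2 or 3 or T. bernacchii replicates 1 or 3 (adjusted p 0.0502 to 0.130), and its value was 4.21 without T. bernacchii replicate 2. S4A4, CP11A and NCPR lost the call with all 9 libraries in the fit (adjusted p 0.104 to 0.604). NCPR also lost it under the stricter count filter (adjusted p = 0.0536). Higher interrenal members numbered 0 when G. acuticeps replicates 1, 2 or 3 or T. bernacchii replicate 3 was left out and 1 when T. bernacchii replicate 1 was left out.

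Chromaffin members were lower in 6 and higher in 2 of 13 (46.2% and 15.4%, beside 21.7% and 16.9% of all mnemonics). Their median was -1.72, with sums of 273, 252 and 338 CPM in G. acuticeps against 683, 229 and 750.3 in T. bernacchii. VMAT1, the monoamine transporter of chromaffin granules, had 7.41, 10.01 and 11.6 CPM in G. acuticeps against 112, 43.5 and 154 in T. bernacchii (log2 fold change -3.41, SE 0.52, adjusted p = 0.00164). STX1A, a syntaxin of vesicle release, had 3.56, 2.62 and 7.68 CPM in G. acuticeps against 32.7, 22.3 and 33.9 in T. bernacchii (log2 fold change -2.65, SE 0.55, adjusted p = 0.00655). PENK, proenkephalin, had 95.1, 81.3 and 125 CPM in G. acuticeps against 4.12, 7.54 and 4.54 in T. bernacchii (log2 fold change 4.24, SE 0.41, adjusted p = 0.000251). The opioid precursor was higher where the transporter and the syntaxin were lower. TPH1, the tryptophan hydroxylase of serotonin synthesis, had 58.7, 78.9 and 95.7 CPM in G. acuticeps against 26.9, 22.97 and 30.1 in T. bernacchii (log2 fold change 1.54, SE 0.33, adjusted p = 0.00783). PNMT, which makes adrenaline, had 4.15, 0 and 2.53 CPM in G. acuticeps against 116, 10.6 and 91.9 in T. bernacchii, and was named after its values were seen. Lower chromaffin members numbered 12 when T. bernacchii replicate 2 was left out. Stroma and vessel members were mostly not called, with 7 higher and 6 lower of 35 and a median of 0.24. Their shares were 20% and 17.1%, beside 16.9% and 21.7% of all mnemonics. STAB2, a scavenger receptor of sinusoidal endothelium, had 222, 241 and 367 CPM in G. acuticeps against 1.21, 9.26 and 1.23 in T. bernacchii (log2 fold change 6.27, SE 0.89, adjusted p = 0.00115). MMP2 (a gelatinase) and SPRC (osteonectin) were higher, at 3.41 and 1.903, and PTRF (cavin-1) was lower, at -2.54 on the log2 scale. The MMP2 call was lost without G. acuticeps replicate 1 (adjusted p = 0.0715). The SPRC call was lost without G. acuticeps replicate 1 or T. bernacchii replicates 1 or 3 (adjusted p 0.0750 to 0.100). The PTRF call was lost without G. acuticeps replicates 2 or 3 (adjusted p 0.0683 to 0.0708). Higher stroma and vessel members numbered 3 when G. acuticeps replicate 1 was left out and 4 when T. bernacchii replicate 1 was left out.

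The skeletal muscle list summed to 22588, 31151 and 36180.1 CPM in G. acuticeps against 1129.9, 5656 and 1753 in T. bernacchii, and most of the gap came from 1 member, ACTS. ACTS, the alpha actin of skeletal muscle, had 18128, 29314 and 28636 CPM in G. acuticeps against 20.6, 204 and 16.8 in T. bernacchii (log2 fold change 8.31, SE 1.24, adjusted p = 0.00142). Without ACTS, an alternative chosen after the values were seen, the sums were 4459.9, 1837 and 7544 CPM in G. acuticeps against 1109, 5452 and 1736 in T. bernacchii, and they overlapped. In the actin family, given further on, a beta actin row was low where the ACTS row was high, and the actin sum was not called. Of 34 tested muscle members, 4 were higher, 3 lower and 27 not called, with a median of 0.26. Higher members made 11.8% and lower ones 8.82%, beside 16.9% and 21.7% of all mnemonics. ACTN3, an alpha-actinin of fast fibres, had 85.96, 34.6 and 175 CPM in G. acuticeps against 0.485, 1.03 and 0.852 in T. bernacchii (log2 fold change 6.94, SE 0.77, adjusted p = 0.000401). MLE1, a myosin light chain, had 26.1, 77.5 and 723 CPM in G. acuticeps against 0.727, 1.71 and 8.14 in T. bernacchii (log2 fold change 6.15, SE 1.47, adjusted p = 0.0126). The MLE1 value was 3.87 without G. acuticeps replicate 3. ACTN2, another alpha-actinin, had 1.78, 2.86 and 14.97 CPM in G. acuticeps against 29.8, 224 and 49.1 in T. bernacchii (log2 fold change -3.87, SE 1.04, adjusted p = 0.0208). The ACTN2 call was lost without G. acuticeps replicates 1 or 2 (adjusted p 0.0709 to 0.0740), and its value was -2.51 without T. bernacchii replicate 2. ACTN3 and ACTN2 are related entries with different mnemonics that differed in opposite directions, and their sum was not tested. A difference in expression and reads of 1 gene going to either entry cannot be told apart here. Lower muscle members numbered 1 when G. acuticeps replicate 2 was left out. The part of muscle tissue in the other results was not tested.

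**Figure D5:**
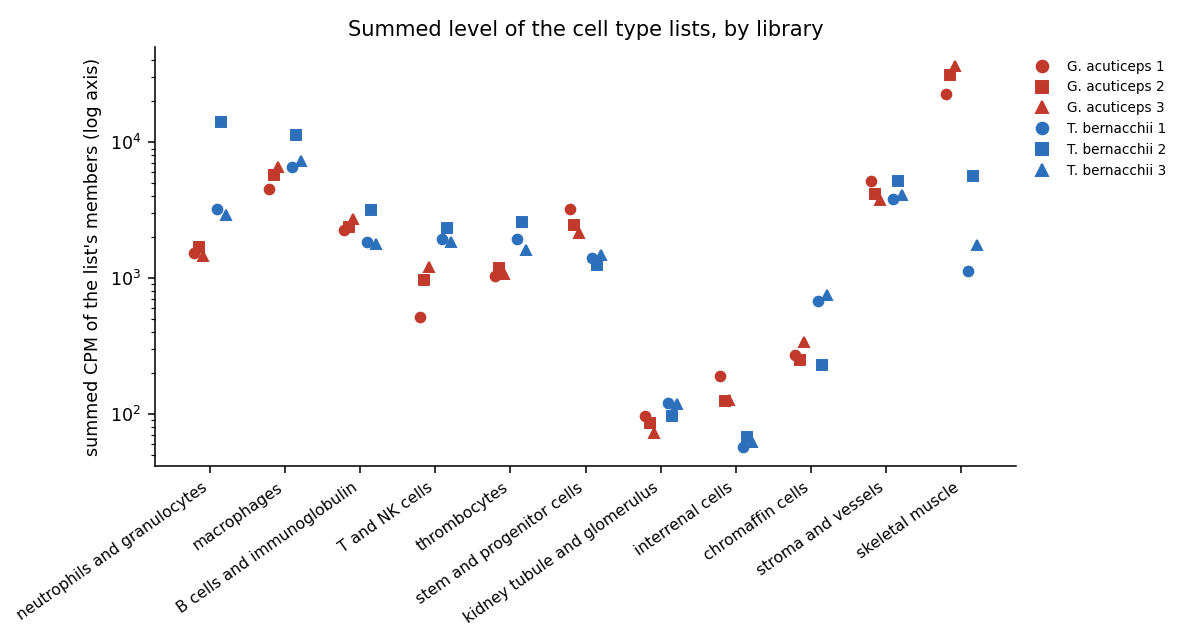
Summed CPM of each cell type list on a log axis in the 6 libraries, with red for G. acuticeps, blue for T. bernacchii and marker shape for the replicate. The neutrophil sum of T. bernacchii replicate 2 is 14076 CPM against 3212 and 2896 in the other T. bernacchii libraries, and the muscle sums of G. acuticeps carry ACTS.

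TGF-beta and BMP signalling, the pathway in the series title, had 7 higher and 7 lower of 32 tested members, shares of 21.9% each, beside 16.9% and 21.7% of all mnemonics, with a median of -0.39. TGF-beta ligands bind receptor kinases that activate SMAD proteins, and the ID genes are among their targets. Of the ligands and receptors, TGFB1 (-0.22), TGFR2 (-0.37), BMPR2 (-0.33) and ACVL1 (-0.96) were not called, with their log2 fold changes in brackets. They are not among the rule's named genes and were named to cover the pathway. INHA, the inhibin alpha subunit, had 53.6, 45.5 and 27.99 CPM in G. acuticeps against 6.54, 0.686 and 0.946 in T. bernacchii (log2 fold change 3.97, SE 0.87, adjusted p = 0.00847). SMAD3, a receptor-activated SMAD, had 82.4, 47.7 and 36.5 CPM in G. acuticeps against 0.242, 4.799 and 0.189 in T. bernacchii (log2 fold change 5.23, SE 1.15, adjusted p = 0.00859). The SMAD3 value was 7.95 without T. bernacchii replicate 2. SMAD2, its close relative, was lower at a log2 fold change of -3.77 (adjusted p = 0.0240, SE 1.05), a value given after it was seen. A sum of SMAD2 and SMAD3 was not tested, and the limit on related entries with different mnemonics holds for this pair. TSP1, thrombospondin-1, an activator of latent TGF-beta, had 8.003, 3.81 and 2.24 CPM in G. acuticeps against 71.98, 131 and 41.3 in T. bernacchii (log2 fold change -4.16, SE 0.66, adjusted p = 0.00190). ID2, an inhibitor of helix-loop-helix factors, had 1.48, 3.58 and 5.44 CPM in G. acuticeps against 9.69, 53.1 and 10.7 in T. bernacchii (log2 fold change -2.75, SE 0.85, adjusted p = 0.0347). The ID2 call was lost without G. acuticeps replicates 1, 2 or 3 or T. bernacchii replicate 2 (adjusted p 0.0622 to 0.117), and its value was -1.48 without T. bernacchii replicate 2. TSP1 lost the call with all 9 libraries in the fit (adjusted p = 0.0547). Higher TGF-beta and BMP members numbered 3 when G. acuticeps replicate 1 was left out and 4 when G. acuticeps replicate 2 was left out, while lower members numbered 3 when G. acuticeps replicates 2 or 3 was left out and 4 when G. acuticeps replicate 1 was left out.

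Cell cycle and DNA replication had 22 of 83 tested members higher and 9 lower (26.5% and 10.8%, beside 16.9% and 21.7% of all mnemonics). The median was 0.79, with sums of 19622, 20443 and 25819 CPM in G. acuticeps against 10688, 9479 and 15611 in T. bernacchii, which did not overlap. WEE1, the kinase that restrains entry into mitosis, had 56.9, 53.9 and 54.1 CPM in G. acuticeps against 1.697, 4.799 and 2.84 in T. bernacchii (log2 fold change 4.16, SE 0.49, adjusted p = 0.000485). NDC80, a kinetochore subunit, had 0.296, 0.238 and 0.486 CPM in G. acuticeps against 27.4, 25.4 and 42.96 in T. bernacchii (log2 fold change -6.36, SE 0.60, adjusted p = 0.000231). BUB3, a spindle checkpoint protein, had 1.19, 5.24 and 5.83 CPM in G. acuticeps against 89.9, 60.7 and 93.6 in T. bernacchii (log2 fold change -4.27, SE 0.59, adjusted p = 0.00103). E2F2, a factor of S phase genes, had 0.889, 0.953 and 0.680 CPM in G. acuticeps against 39.7, 24.7 and 30.7 in T. bernacchii (log2 fold change -5.24, SE 0.52, adjusted p = 0.000274). WEE1 was higher and the other genes lower, each without overlap. Among the called replication genes, PCNA, the sliding clamp, had 721, 854 and 897 CPM in G. acuticeps against 331, 235 and 352 in T. bernacchii and RIR2, a ribonucleotide reductase subunit, 859, 1094 and 1731 CPM in G. acuticeps against 449, 283 and 604 in T. bernacchii, with log2 fold changes of 1.43 (adjusted p = 0.00914, SE 0.32) and 1.46 (adjusted p = 0.0276, SE 0.42). PCNA and RIR2 were chosen after their values were seen. The MCM2 and MCM4 helicase subunits (-0.54 and 0.43) and the mitotic kinase CDK1 (-0.079) were not called. Higher cell cycle members numbered 34 when T. bernacchii replicate 3 was left out.

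Heat shock proteins and cochaperones had 8 higher and 4 lower of 43 (18.6% and 9.302%, beside 16.9% and 21.7% of all mnemonics), with a median of 0.11. HSP71, a cytosolic HSP70, had 209.6, 238 and 257 CPM in G. acuticeps against 58.4, 32.6 and 51.9 in T. bernacchii (log2 fold change 2.300, SE 0.34, adjusted p = 0.00144). FKBP4, a cochaperone of HSP90, had 99.3, 175 and 181 CPM in G. acuticeps against 7.76, 34.3 and 8.14 in T. bernacchii (log2 fold change 3.21, SE 0.66, adjusted p = 0.00640). CH60, the mitochondrial chaperonin, had 3.56, 3.81 and 9.62 CPM in G. acuticeps against 173, 86.04 and 175 in T. bernacchii (log2 fold change -4.62, SE 0.56, adjusted p = 0.000556). STIP1, the protein that links HSP70 and HSP90, had 14.5, 35.8 and 40.05 CPM in G. acuticeps against 175, 167 and 257 in T. bernacchii (log2 fold change -2.73, SE 0.46, adjusted p = 0.00249). The summed cytosolic HSP70 and HSP90 were not called, at log2 fold changes of -0.49 and -0.42, and for both the groups overlapped. Of the chaperones named, HSP71 and FKBP4 were high and CH60 and STIP1 low in each G. acuticeps library. Antioxidant members numbered 7 higher and 4 lower of 32 (21.9% and 12.5%, beside 16.9% and 21.7% of all mnemonics), with a median of 0.35. GPX4, the glutathione peroxidase that clears lipid peroxides, had 1016, 777 and 1212 CPM in G. acuticeps against 229.8, 86.04 and 314 in T. bernacchii (log2 fold change 2.25, SE 0.50, adjusted p = 0.00939). GLRX5, a mitochondrial glutaredoxin of iron-sulfur cluster assembly, had 197, 171 and 189 CPM in G. acuticeps against 23.8, 66.8 and 26.9 in T. bernacchii (log2 fold change 2.25, SE 0.46, adjusted p = 0.00613). GSTA, a glutathione transferase, had 90.4, 233 and 423 CPM in G. acuticeps against 42.7, 76.4 and 37.2 in T. bernacchii (log2 fold change 2.26, SE 0.59, adjusted p = 0.0183). GSH0, a subunit of glutathione synthesis, had 10.97, 11.2 and 15.6 CPM in G. acuticeps against 49.7, 43.9 and 52.6 in T. bernacchii (log2 fold change -1.95, SE 0.36, adjusted p = 0.00378). Higher antioxidant members numbered 4 when G. acuticeps replicate 2 or T. bernacchii replicate 1 was left out, while lower members numbered 2 when G. acuticeps replicate 2 was left out.

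Interferon and innate sensing had 6 higher and 6 lower of 28 (21.4% and 21.4%, beside 16.9% and 21.7% of all mnemonics), with a median of 0.027. TBK1, the kinase that activates interferon regulatory factors, had 833, 542 and 233 CPM in G. acuticeps against 4.36, 69.2 and 9.94 in T. bernacchii (log2 fold change 4.29, SE 1.06, adjusted p = 0.0147). IRF7, one of those factors, had 5.04, 4.29 and 3.402 CPM in G. acuticeps against 28.4, 40.8 and 31.4 in T. bernacchii (log2 fold change -2.99, SE 0.44, adjusted p = 0.00130). IFIH1, the RNA sensor MDA5, had 16.6, 24.3 and 30.9 CPM in G. acuticeps against 147, 216 and 164 in T. bernacchii (log2 fold change -2.87, SE 0.37, adjusted p = 0.000756). SOCS3, an inhibitor of cytokine signalling, had 9.78, 5.48 and 6.12 CPM in G. acuticeps against 64.5, 62.7 and 83.8 in T. bernacchii (log2 fold change -3.31, SE 0.40, adjusted p = 0.000556). Sensor, factor and inhibitor were low in G. acuticeps and the kinase was high, each without overlap. Higher interferon members numbered 10 when T. bernacchii replicate 2 was left out. In antigen presentation, 1 of 10 was higher and 2 were lower (10% and 20%, beside 16.9% and 21.7% of all mnemonics), with a median of -0.55. TPSN, tapasin, the loading factor of MHC class I, had 645, 451 and 308 CPM in G. acuticeps against 71.5, 60.7 and 56.3 in T. bernacchii (log2 fold change 2.896, SE 0.38, adjusted p = 0.000851). TPSNR, the tapasin-related protein, had 8.003, 3.81 and 5.54 CPM in G. acuticeps against 139.8, 115 and 66.9 in T. bernacchii (log2 fold change -4.22, SE 0.47, adjusted p = 0.000394). PDIA3, a disulfide isomerase of the loading complex, had 1209, 1533 and 1805 CPM in G. acuticeps against 2684, 2654 and 4297 in T. bernacchii (log2 fold change -1.08, SE 0.36, adjusted p = 0.0440). The PDIA3 call was lost without G. acuticeps replicates 1, 2 or 3 or T. bernacchii replicates 1 or 3 (adjusted p 0.0798 to 0.216). It was also lost under both other scalings and with all 9 libraries in the fit. Higher antigen presentation members numbered 2 when T. bernacchii replicate 2 was left out, while lower members numbered 1 when G. acuticeps replicates 1, 2 or 3 or T. bernacchii replicates 1 or 3 was left out.

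Complement and clotting had 4 higher and 4 lower of 20 (20% and 20%, beside 16.9% and 21.7% of all mnemonics), with a median of -0.13. CO9, the pore-forming last component, had 124, 109 and 33.4 CPM in G. acuticeps against 2.67, 6.51 and 1.32 in T. bernacchii (log2 fold change 4.75, SE 0.77, adjusted p = 0.00214). CFAB, factor B of the alternative pathway, had 6.82, 7.87 and 9.91 CPM in G. acuticeps against 78.5, 82.3 and 114 in T. bernacchii (log2 fold change -3.47, SE 0.36, adjusted p = 0.000315). TPA, tissue plasminogen activator, had 466, 288 and 239.7 CPM in G. acuticeps against 97.2, 20.2 and 55.9 in T. bernacchii (log2 fold change 2.51, SE 0.59, adjusted p = 0.0112). PROS, protein S, an anticoagulant cofactor, had 23.4, 16.2 and 18.95 CPM in G. acuticeps against 66.4, 81.9 and 103 in T. bernacchii (log2 fold change -2.103, SE 0.34, adjusted p = 0.00212). The groups were apart in all of these. FIBB, the fibrinogen beta chain, had no G. acuticeps count and 733, 864 and 2112 CPM in T. bernacchii, at least 1957-fold lower, and FIBG, the gamma chain, was not called (log2 fold change 1.39, adjusted p = 0.113). FIBB and FIBG were chosen after their values were seen. Lower complement members numbered 8 in DESeq2 and 8 without a filter, and higher ones 2 under the stricter count filter. Those settings called 3522 of 8572, 3015 of 10557 and 2101 of 5630 mnemonics in either direction, beside 2749 of 7124 in the main fit. How many list members were tested in them is not given, so these counts cannot be read as shares. Hypoxia and vessel growth had 4 higher and 4 lower of 22 (18.2% and 18.2%, beside 16.9% and 21.7% of all mnemonics), with a median of -0.51. ARNT, the partner of hypoxia-inducible factors, had 0.889, 1.19 and 0.0972 CPM in G. acuticeps against 89.4, 72.3 and 38.1 in T. bernacchii (log2 fold change -6.71, SE 0.84, adjusted p = 0.000644). LDHA, a lactate dehydrogenase, had 134, 104 and 256 CPM in G. acuticeps against 7.51, 39.1 and 8.14 in T. bernacchii (log2 fold change 3.201, SE 0.74, adjusted p = 0.0110). NRP1A, a coreceptor of VEGF, had 13.6, 8.82 and 7.29 CPM in G. acuticeps against 48.7, 34.6 and 42.3 in T. bernacchii (log2 fold change -2.09, SE 0.41, adjusted p = 0.00549). HIF1A, the oxygen-regulated subunit, was not called (log2 fold change -0.37, adjusted p = 0.356).

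Large complexes were mostly not called. The proteasome had 6 higher and 1 lower of 36 (16.7% and 2.78%, beside 16.9% and 21.7% of all mnemonics), with a median of 0.52. PSB7, a catalytic subunit, had 127, 201 and 388 CPM in G. acuticeps against 23.5, 37.02 and 26.6 in T. bernacchii (log2 fold change 3.04, SE 0.49, adjusted p = 0.00204). PSB5, another catalytic subunit, and the alpha ring subunits PSA6 and PSA4 were higher by 1.82, 1.25 and 1.23 on the log2 scale. The PSB5 call was lost without T. bernacchii replicate 1 (adjusted p = 0.0527). The PSA6 call was lost without G. acuticeps replicates 2 or 3 or T. bernacchii replicates 1 or 3 (adjusted p 0.0516 to 0.0830). The PSA4 call was lost without G. acuticeps replicates 1, 2 or 3 or T. bernacchii replicate 1 (adjusted p 0.0720 to 0.0833). PSA4 lost the call with all 9 libraries in the fit (adjusted p = 0.0723). Higher proteasome members numbered 1 when T. bernacchii replicate 1 was left out and 2 when G. acuticeps replicates 2 or 3 was left out, while lower members numbered 0 when G. acuticeps replicates 1, 2 or 3 or T. bernacchii replicate 1 was left out and 3 when T. bernacchii replicate 2 was left out. Ribosomal proteins had 9 of 64 higher (14.1%, beside 16.9% of all mnemonics). They had 0 lower, beside 21.7% of all mnemonics (0 at an unadjusted p under 0.05 in edgeR, and 1 in DESeq2). The median was 0.76, with sums of 187024, 290558 and 391823 CPM in G. acuticeps against 148617, 132714 and 223456 in T. bernacchii, which overlapped. RL22L, an RL22 paralog, had 626, 761 and 444 CPM in G. acuticeps against 172, 174 and 260.3 in T. bernacchii (log2 fold change 1.59, SE 0.36, adjusted p = 0.00938). RLA1, RL36 and RL36A were higher by 2.04, 1.39 and 1.33. The RLA1 call was lost without G. acuticeps replicates 2 or 3 or T. bernacchii replicate 2 (adjusted p 0.0576 to 0.0602). The RL36 call was lost without G. acuticeps replicates 2 or 3 or T. bernacchii replicate 1 (adjusted p 0.0517 to 0.0935). The RL36A call was lost without G. acuticeps replicates 2 or 3 or T. bernacchii replicates 1 or 2 (adjusted p 0.0552 to 0.121). RL22L and RL36A lost the call with all 9 libraries in the fit (adjusted p 0.0840 to 0.0948). Higher ribosomal members numbered 3 when G. acuticeps replicate 2 was left out, 4 when G. acuticeps replicate 3 or T. bernacchii replicates 1 or 2 was left out and 15 when G. acuticeps replicate 1 was left out, while lower members numbered 1 when G. acuticeps replicate 1 or T. bernacchii replicate 2 was left out.

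The respiratory chain and ATP synthase had 6 higher and 4 lower of 51 (11.8% and 7.84%, beside 16.9% and 21.7% of all mnemonics), with a median of 0.21. NDUA9, a complex I subunit, had 816, 582 and 601 CPM in G. acuticeps against 147, 102 and 216 in T. bernacchii (log2 fold change 2.102, SE 0.39, adjusted p = 0.00376). COX8A of cytochrome oxidase and ATP5J and ATPD of ATP synthase were higher by 1.65, 1.56 and 1.52 on the log2 scale. The COX8A call was lost without G. acuticeps replicate 3 or T. bernacchii replicate 1 (adjusted p 0.0538 to 0.0564). The ATP5J call was lost without G. acuticeps replicates 1, 2 or 3 or T. bernacchii replicate 1 (adjusted p 0.0562 to 0.122). ATP5J lost the call with all 9 libraries in the fit (adjusted p = 0.0587). The ATPD call was lost without G. acuticeps replicates 2 or 3 or T. bernacchii replicates 1 or 2 (adjusted p 0.0521 to 0.0976). QCR7, QCR6 and NDUB6 were lower, with no count in G. acuticeps, and ATPA, the alpha subunit of ATP synthase, was lower with 156, 322 and 423 CPM in G. acuticeps against 846, 627 and 1047 in T. bernacchii. QCR7, QCR6, NDUB6 and ATPA were named after their values were seen. Higher respiratory chain members numbered 1 when G. acuticeps replicate 3 or T. bernacchii replicate 1 was left out, 2 when G. acuticeps replicate 2 was left out and 3 when T. bernacchii replicate 2 was left out.

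The largest differences among called mnemonics with a count in every library were outside the lists above for most genes. Of the 10 highest, ACTS has been given. ZBT26, a zinc finger and BTB domain protein, had 1607, 753 and 452 CPM in G. acuticeps against 0.485, 3.09 and 0.852 in T. bernacchii (log2 fold change 9.46, SE 0.92, adjusted p = 0.000248). TBA1C, an alpha tubulin, had 3111, 4121 and 3108 CPM in G. acuticeps against 4.12, 10.6 and 4.35 in T. bernacchii (log2 fold change 9.12, SE 0.61, adjusted p = 0.000115). NINJ1, ninjurin-1, a membrane protein of dying cells, had 1944, 2096 and 2259.8 CPM in G. acuticeps against 5.33, 26.4 and 4.92 in T. bernacchii (log2 fold change 7.46, SE 0.83, adjusted p = 0.000404). KIF5A, a kinesin heavy chain, had 288, 329 and 513 CPM in G. acuticeps against 1.697, 3.43 and 1.42 in T. bernacchii (log2 fold change 7.51, SE 0.55, adjusted p = 0.000130). In each of them the species were far apart, and T. bernacchii replicate 2 was the highest library of its species. ENSA, an inhibitor of protein phosphatase 2A in mitosis, had 733, 543 and 489 CPM in G. acuticeps against 2.18, 8.57 and 0.852 in T. bernacchii (log2 fold change 7.38, SE 0.89, adjusted p = 0.000578). NCOA3, a coactivator of nuclear receptors, had 549, 262 and 162 CPM in G. acuticeps against 0.242, 3.77 and 1.798 in T. bernacchii (log2 fold change 7.45, SE 0.90, adjusted p = 0.000579). AA2AR, an adenosine receptor, had 102, 70.6 and 74.9 CPM in G. acuticeps against 0.485, 0.686 and 0.189 in T. bernacchii (log2 fold change 7.69, SE 0.57, adjusted p = 0.000130). CX038, for which no role is given, had a log2 fold change of 7.804. HEMK1, a methyltransferase of translation release factors, had 3 counts in all in T. bernacchii and was 292-fold higher by depth-scaled counts (95% counting interval 99.6 to 1418).

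KPYM, the muscle-type pyruvate kinase and the lowest of all under the rule, had 1.48, 1.19 and 2.14 CPM in G. acuticeps against 1301, 613 and 1332 in T. bernacchii (log2 fold change -9.33, SE 0.58, adjusted p = 0.000115). TPPC9, a subunit of the TRAPP trafficking complex, had 3.85, 2.15 and 2.24 CPM in G. acuticeps against 1029.6, 1009 and 2123 in T. bernacchii (log2 fold change -9.004, SE 0.60, adjusted p = 0.000115). MTMRE, a phosphoinositide phosphatase, had 0.296, 0.477 and 0.778 CPM in G. acuticeps against 321, 85.7 and 220.3 in T. bernacchii (log2 fold change -8.45, SE 0.72, adjusted p = 0.000184). KPYM, TPPC9 and MTMRE were nearly at 0 in every G. acuticeps library. UBF1, the upstream binding factor of ribosomal RNA genes, had 0.296, 0.477 and 0.680 CPM in G. acuticeps against 289.9, 144 and 169 in T. bernacchii (log2 fold change -8.51, SE 0.55, adjusted p = 0.000115). ABR had 0.296, 0.238 and 0.486 CPM in G. acuticeps against 209.9, 132 and 253 in T. bernacchii (log2 fold change -8.97, SE 0.54, adjusted p = 0.000115). EFHD2, a calcium-binding protein, had 0.296, 0.477 and 1.17 CPM in G. acuticeps against 247, 215 and 268 in T. bernacchii (log2 fold change -8.302, SE 0.54, adjusted p = 0.000115). LYST, the lysosomal trafficking regulator, and ITA9, integrin alpha-9, had log2 fold changes of -8.44 and -8.37. SV2B, a synaptic vesicle protein, had 3 counts in all in G. acuticeps and was 418-fold lower by depth-scaled counts (95% counting interval 142.8 to 2032). NAMPT, given above, completes the 10 lowest.

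Among rows at 0 in all 3 libraries of 1 species, the largest differences in mean CPM include 4 rows at 0 in T. bernacchii besides HBB2_PSEUR. PAF_BOVIN, a PCNA-associated factor, had 1148, 958 and 1145 CPM in G. acuticeps against 0, 0 and 0 in T. bernacchii, at least 1601-fold higher. IFI27_HUMAN, an interferon-induced protein, had 539, 614 and 1121 CPM in G. acuticeps against 0, 0 and 0 in T. bernacchii, at least 1119.6-fold higher. MUC18_HUMAN, a cell adhesion glycoprotein, had 726, 639 and 676 CPM in G. acuticeps against 0, 0 and 0 in T. bernacchii, at least 1005-fold higher, and SC61G_XENLA, a subunit of the protein channel of the endoplasmic reticulum, 318, 549 and 653 CPM in G. acuticeps against 0, 0 and 0 in T. bernacchii, at least 749-fold higher. The 4 rows are the sole tested rows of their mnemonics. At 0 in G. acuticeps, besides the hemoglobin rows, were both rows of HMR1, the MHC class I-related protein. HMR1_RAT had 0, 0 and 0 CPM in G. acuticeps against 6405, 2182 and 1498 in T. bernacchii, and HMR1_HUMAN had 0, 0 and 0 CPM in G. acuticeps against 796, 3368 and 771 in T. bernacchii. They were lower at least 5300.4-fold and at least 2593-fold, and T. bernacchii replicates 1 and 2 differed in which row was higher.

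Families of near-identical paralogs were summed because such genes can take each other's reads, and 8 of 25 tested families were called, beside 38.5% of all features of that fit, 3 of them higher and 5 lower. Actins split between rows. ACTB_OREMO, a cytoplasmic beta actin, had 149.7, 539.9 and 364 CPM in G. acuticeps against 19802, 24339 and 19071 in T. bernacchii, ACTS_ORYLA, a skeletal alpha actin, had 18200.3, 29401 and 28605 CPM in G. acuticeps against 17.9, 166 and 10.2 in T. bernacchii, and the actin sum had 18437, 30130.1 and 29405 CPM in G. acuticeps against 19927, 24829 and 19113 in T. bernacchii (log2 fold change 0.29, SE 0.36, adjusted p = 0.556). The 2 rows differed in opposite directions without overlap, and the sums overlapped. Alpha tubulins stayed higher when summed, at 4244, 5710.3 and 4602 CPM in G. acuticeps against 413, 336 and 714 in T. bernacchii (log2 fold change 3.31, SE 0.42, adjusted p = 0.000653). Beta tubulins, their partners in microtubules, missed the threshold (log2 fold change -0.48, SE 0.33, adjusted p = 0.287). TBB1_NOTCO had 337, 417 and 415 CPM in G. acuticeps against 0, 0 and 0.190 in T. bernacchii and was called higher. TBB7_CHICK was called higher too, and TBB_PARLI lower. TBB1_GADMO, not called, had 907, 1356 and 1405 CPM in G. acuticeps against 2700, 1757 and 3220 in T. bernacchii. Summed by mnemonic, TBB1 was not called (log2 fold change -0.67, adjusted p = 0.179). Carbonic anhydrases, which hydrate carbon dioxide, were higher at 1111, 1295 and 1379 CPM in G. acuticeps against 436, 614 and 419 in T. bernacchii (log2 fold change 1.37, SE 0.32, adjusted p = 0.0111). Carbonic anhydrases lost the call with all 9 libraries in the fit (adjusted p = 0.0973). The family as matched by name also took in CAHM1, which is no carbonic anhydrase. CAHM1 had 29.0, 25.3 and 25.3 CPM in G. acuticeps against 38.5, 48.0 and 50.8 in T. bernacchii. A sum without it was not tested. Histone H2B was lower at 15.1, 13.1 and 17.4 CPM in G. acuticeps against 228, 150.1 and 348 in T. bernacchii (log2 fold change -3.99, SE 0.42, adjusted p = 0.000332), with H2B12_XENLA counted in T. bernacchii alone and H2B3_TIGCA in G. acuticeps alone. The other core histones were not called, with log2 fold changes of 0.62 for H2A, 0.82 for H3 and 0.35 for H4. The transferrin sum, which holds TRFE, had a log2 fold change of -3.92 (adjusted p = 0.00251, SE 0.66).

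Galectins, proteins that bind beta-galactosides, did not reach the threshold as a family of numbered members, at 501, 426 and 307 CPM in G. acuticeps against 441, 841 and 375 in T. bernacchii (log2 fold change -0.42, SE 0.41, adjusted p = 0.442). The entry LEG_ELEEL, an electric eel galectin whose mnemonic LEG carries no number, stood outside that family, with 24178, 20789.8 and 23749 CPM in G. acuticeps against 117, 293 and 121 in T. bernacchii and a log2 fold change of 7.02 (adjusted p = 0.000172, SE 0.58). Added to the family after its values were seen, it turned the sum to 4.999 (SE 0.48, adjusted p = 0.000241). The sum with LEG and the sum without it thus differ in sign. Families not called and not described so far had log2 fold changes of 0.25 for 14-3-3 proteins, 0.11 for creatine kinases, 0.53 for cyclophilins A, -0.14 for elongation factor 1-alpha, 1.19 for fructose-bisphosphate aldolases, 0.52 for histone H1, 1.44 for parvalbumins, 1.46 for polyubiquitin and ubiquitin fusions and 0.32 for S100 proteins. Of these, polyubiquitin and ubiquitin fusions were called higher in DESeq2 (adjusted p = 0.0349) and without G. acuticeps replicate 1 (adjusted p = 0.0459). They were also called higher with the replicate number as a block in edgeR (1.28, adjusted p = 0.0274).

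Fits of the icefish against each red-blooded species, made in the same manner, were set beside these counts. C. hamatus against G. acuticeps called 3437 of 7554 mnemonics (45.5%), and C. hamatus against T. bernacchii called 1924 of 7690 (25%), beside 2749 of 7124 (38.6%) for the red-blooded pair. By rows, the counts were 3696 of 7938 (46.6%), 2103 of 8086 (26%) and 2947 of 7470 (39.5%). Each species enters 2 of the 3 fits, so they share libraries, and the differences between the counts were not tested. The number called also depends on the spread among the libraries of each species. Replicates correlated less within T. bernacchii than within G. acuticeps, as given above. The counts are therefore no measure of how alike 2 species are.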

How the data were processed

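Head kidney RNA of G. acuticeps and T. bernacchii was sequenced in 3 libraries of each species. The deposited table holds raw read counts per UniProt entry name, whole numbers that the authors had not normalized, as the values themselves show. Which aligner, reference and counter they used is not given in the sources used here.

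Counts were used per row, after summing rows with the same mnemonic, and after summing 30 families of paralogs by name. Each was filtered with filterByExpr, scaled by TMM and tested with the quasi-likelihood test of edgeR 4.0.16 in R 4.3.3 on the 6 libraries, with Benjamini-Hochberg adjusted p under 0.05. SE is the size of the log2 fold change over the root of the F statistic. The steps were run on simulated counts with known changes, balanced in direction and in a small part of the features, with the same spread for all. Far more features were called in the data, so the simulation does not show how the fit performs on them. DESeq2 1.42.0 was an alternative.

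Named genes are the 10 highest and 10 lowest called mnemonics with a count in each library and a mean of at least 100 counts in the higher species. To these were added up to 4 called members of each list by size of change, all hemoglobin, heme synthesis and erythroid members, all tested families, and the 5 rows at each end that were at 0 in 1 species. Members and lists were chosen with earlier results of these data known. Replicates of a species differed from each other by 41.4 to 165 times the sampling noise (chi-square per degree of freedom), so none was counted as a duplicate. No sequences are printed, since no sequence was used here. Results for a few named genes are not reported here.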

Additional observations from a re-analysis of the deposited data

How the results depend on the processing

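The 16 alternatives kept the total calls within 1.5 times at each level. They ran from 1869 to 3522 for mnemonics, with the highest count from DESeq2 (3522 of 8572 tested). Calls numbered 3015 of 10557 without a filter, 2101 of 5630 with at least 50 counts in 3 libraries and 2499 of 8181 with all 9 libraries. Tested against a fold of 2, higher calls numbered 837 for rows, 758 for mnemonics and 747 for families. With features counted in all 6 libraries, chosen after seeing the data, lower rows numbered 1090. Leaving out 1 library gave 1026 to 1752 lower mnemonics, with the lowest count without G. acuticeps replicate 2 and the highest without T. bernacchii replicate 2. The cause was not tested.

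Same-numbered libraries had correlations of deviations of 0.070, -0.010 and 0.091, and differently numbered ones ran from -0.121 to 0.079. Whether the shared replicate numbers pair the libraries cannot be told from such values, and the main fit did not pair them. With the replicate number as a block, calls numbered 2668 for rows, 2493 for mnemonics and 2480 for families.

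Values that were not called and changed sign when 1 library was left out ran from -0.72 to 0.19 for ABCB6, from -0.61 to 0.085 for HEM1, from -0.13 to 0.47 for MFRN2, from -0.20 to 0.97 for creatine kinases, from -0.44 to 0.18 for elongation factor 1-alpha, from -0.25 to 2.17 for aldolases and from -0.62 to 0.019 for galectins. Galectins with LEG had 4.999. Fitted folds of rows at 0 in 1 species depend on the prior count, and counts of a few reads limit low genes.

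Among 138 named genes, 16 lost their call, with the same direction, when all 9 libraries entered the fit, among them TSP1, EPOR, RUNX1, RBTN2, GFI1B, CP11A and RL22L, as did the carbonic anhydrase and immunoglobulin families. Calls ended by the block include MPEG1, RUNX1, RBTN2, EPOR and MAFK. Against a fold of 2, 29 genes lost theirs, HEM0, HEM2 and MFRN1 included. PDIA3 was lost under both other scalings. Higher members against a fold of 2 numbered 4 for heme synthesis and 4 for the red cell membrane, and higher erythroid regulators numbered 3 with all 9 libraries. Features counted in all 6 libraries leave out members without a count in any 1 library. Under that setting, lower members numbered 4 for thrombocytes, 1 for iron handling and 1 for the respiratory chain. In DESeq2, higher members numbered 16 for ribosomal proteins, 11 for stroma and vessels and 10 for the respiratory chain. Lower T and NK cell members numbered 11 there. With all 9 libraries, higher ribosomal members numbered 4. These lists are examples, and other lists moved too.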
